A study of Rattus norvegicus with 4 samples.

Results

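The matrix proteases and their inhibitors are 9 genes of extracellular matrix breakdown, chosen by symbol: the inhibitor genes Timp1, Timp2 and Timp3, the metalloproteinase genes Mmp2, Mmp3 and Mmp14, the plasminogen activator gene Plau with its receptor gene Plaur, and the aggrecanase gene Adamts4. Every probe set annotated to 1 of these symbols alone was taken, 17 in all, out of 13810 genes named on the arrays. The day 1 array design carried 15 of these probe sets for 8 of the genes, all but Adamts4. The day 3 design carried 2, for Mmp14 and Adamts4, so Mmp14 was the only member present on both.

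RNA came from rat cochlear lateral wall. The left round window niche had been infused with 3-nitropropionic acid (3-NP), which blocks succinate dehydrogenase in mitochondria. The groups were 300 mM 3-NP with tissue taken at day 1, saline alone at day 1, 300 mM 3-NP at day 3 and saline alone at day 3, with 1 array in each. All animals were female Sprague-Dawley rats of 8 to 10 weeks and 180 to 210 g, under pentobarbital and lidocaine, with gelatin left on the niche and the right cochlea destroyed by surgery. The labels place the tissue in the upper basal turn and also in the second turn with the stria vascularis removed, and the number of animals per array is not stated there. With 1 array a group, replicate error is unknown throughout and no test was run.

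Metalloproteinases are secreted or membrane-bound zinc enzymes, made as inactive precursors, that cut collagens, proteoglycans and other matrix proteins. Tissue inhibitors of metalloproteinases (TIMPs) bind their active sites. Urokinase, the product of Plau, turns plasminogen into plasmin at the cell surface, and plasmin cuts fibrin and activates some metalloproteinase precursors. In the cochlear lateral wall, fibrocytes of the spiral ligament lie in a collagen-rich matrix that anchors the stria vascularis.

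The sequences upstream of Timp1, Mmp3, Plau and Adamts4, whose signals were the higher ones after 3-NP, are shown with that of Plaur, the receptor gene that pairs with Plau. Each is the 250 bases before the transcription start in the RefSeq promoter table (GRCr8), read 5′ to 3′ on the gene's own strand. The capitals mark the letters TGANTCA, bound by AP-1, TGAGTAA, a variant of it described in the mouse Timp1 promoter, and AGGAAG, an Ets core. The variant was added after the Timp1 sequence had been seen. The windows are chrX:3771123-3771372 (minus strand) for Timp1, chr8:12925031-12925280 (plus) for Mmp3, chr15:3511988-3512237 (minus) for Plau, chr1:89181113-89181362 (plus) for Plaur and chr13:86202761-86203010 (plus) for Adamts4. For Timp1 and Mmp3 the annotated gene also reaches upstream of the start used in the table.
Timp1: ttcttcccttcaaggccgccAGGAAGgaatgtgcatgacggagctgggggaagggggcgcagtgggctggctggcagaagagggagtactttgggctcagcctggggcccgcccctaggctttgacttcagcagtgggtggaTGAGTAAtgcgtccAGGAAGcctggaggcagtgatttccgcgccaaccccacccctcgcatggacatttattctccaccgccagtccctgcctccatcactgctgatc
Mmp3: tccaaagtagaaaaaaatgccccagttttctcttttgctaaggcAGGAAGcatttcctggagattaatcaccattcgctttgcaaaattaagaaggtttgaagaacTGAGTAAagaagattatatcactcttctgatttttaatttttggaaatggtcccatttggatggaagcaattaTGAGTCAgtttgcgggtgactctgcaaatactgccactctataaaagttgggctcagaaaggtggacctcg
Plau: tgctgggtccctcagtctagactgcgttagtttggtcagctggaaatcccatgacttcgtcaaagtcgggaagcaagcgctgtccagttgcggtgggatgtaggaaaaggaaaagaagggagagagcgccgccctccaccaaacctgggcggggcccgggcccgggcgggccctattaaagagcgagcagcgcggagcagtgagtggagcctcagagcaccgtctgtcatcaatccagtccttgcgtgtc
Plaur: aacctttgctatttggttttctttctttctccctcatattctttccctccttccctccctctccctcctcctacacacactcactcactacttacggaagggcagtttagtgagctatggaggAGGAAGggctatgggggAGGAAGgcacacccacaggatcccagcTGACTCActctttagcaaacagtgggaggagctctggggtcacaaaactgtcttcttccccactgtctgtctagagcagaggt
Adamts4: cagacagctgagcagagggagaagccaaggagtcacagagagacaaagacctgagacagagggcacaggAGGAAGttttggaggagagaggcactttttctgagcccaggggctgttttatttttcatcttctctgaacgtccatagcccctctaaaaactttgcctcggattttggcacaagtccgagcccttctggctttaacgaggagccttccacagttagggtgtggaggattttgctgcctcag

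The table held 7 of the 9 members, without Mmp2 and Mmp14, and both strands were searched. TGANTCA was found in Mmp3, 71 bases before the start, and in Plaur, 83 bases before it. It occurred in 6.34% of the 33469 rat promoter windows of the same length. TGAGTAA was found in Timp1 at 108 bases and in Mmp3 at 144 bases, and in 2.38% of all windows. AGGAAG occurred in 29.5% of windows and in Timp1, Mmp3, Plaur and Adamts4, and in Timp1 it began 94 bases before the start, just downstream of the AP-1 variant. The letters TTCNNNGAA, bound by STAT factors, were in Adamts4 at 121 bases and in 7.67% of windows. The NF-kB consensus was in none of the 7 and in 3.54% of windows, and TATAAA was in Mmp3 at 32 bases and in 12.9% of windows. No matches overlapped. The Plau, Timp2 and Timp3 windows held none of the motifs searched.

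Values are MAS5 signals on a linear scale. The signal of the median gene was higher in 3-NP than in saline by a log2 ratio of 0.44 at day 1 and 0.10 at day 3. Ratios are therefore given relative to the median gene of each day, as relative log2 ratios, and 2-fold means a size of at least 1 on that scale. Signals below the 30th percentile of an array were set to that percentile, called the floor, which was 22.0 in 3-NP and 17.1 in saline at day 1, and 9.85 in 3-NP and 9.22 in saline at day 3. A fold with 1 signal at the floor is a lower bound. A probe set counted as measured when either signal of the pair reached the 50th percentile of its own array. The error of 1 probe set, taken from genes with several, had an SD of 0.35 on the log2 ratio at day 1 (744 genes) and 0.47 at day 3 (805 genes). It holds no variation between animals or dissections.

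Timp1, which encodes a secreted inhibitor of most metalloproteinases and is induced by cytokines in many tissues, was far higher in 3-NP, unlike the other TIMP genes on the day 1 array. Its single probe set gave a signal of 4455 in the 3-NP array and 168 in the saline array at day 1. Both were well above the floor, so the value is not a bound. Relative to the median gene the log2 ratio was 4.29, or 19.6-fold, and as deposited the signals were 26.5-fold apart. It ranked 7th from the highest of 6465 genes that lay above the floor in both day 1 arrays.

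Timp2 encodes the inhibitor that also takes part in activating the Mmp2 precursor together with the Mmp14 protein. Its brighter probe set had 957 in 3-NP and 888 in saline at day 1, a relative log2 ratio of -0.33 that turned to 0.11 as deposited. The other Timp2 probe set had 113 in 3-NP and 147 in saline, a ratio of -0.81. The probe sets were 0.48 apart, against an SD of 0.50 for such differences over all genes with several probe sets. Neither was 2-fold apart between the arrays.

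Timp3 encodes an inhibitor that stays bound to the matrix and that also blocks some ADAM and ADAMTS enzymes. Its brightest probe set had 1147 in 3-NP and 1003 in saline, with a relative log2 ratio of -0.24 that turned to 0.19 as deposited. A further measured probe set had 351 in 3-NP and 233 in saline, a ratio of 0.15. A pair of dimmer probe sets below the filter gave 57.1 in 3-NP and 44.0 in saline (-0.06), and 53.4 in 3-NP and 34.1 in saline (0.21). The 4 values spanned 0.45 around the median gene. The Timp1 ratio exceeded that of Timp2 by 4.62 and that of Timp3 by 4.54, differences that centring cannot change, while Timp3 and Timp2 were 0.09 apart.

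**Figure D1:**
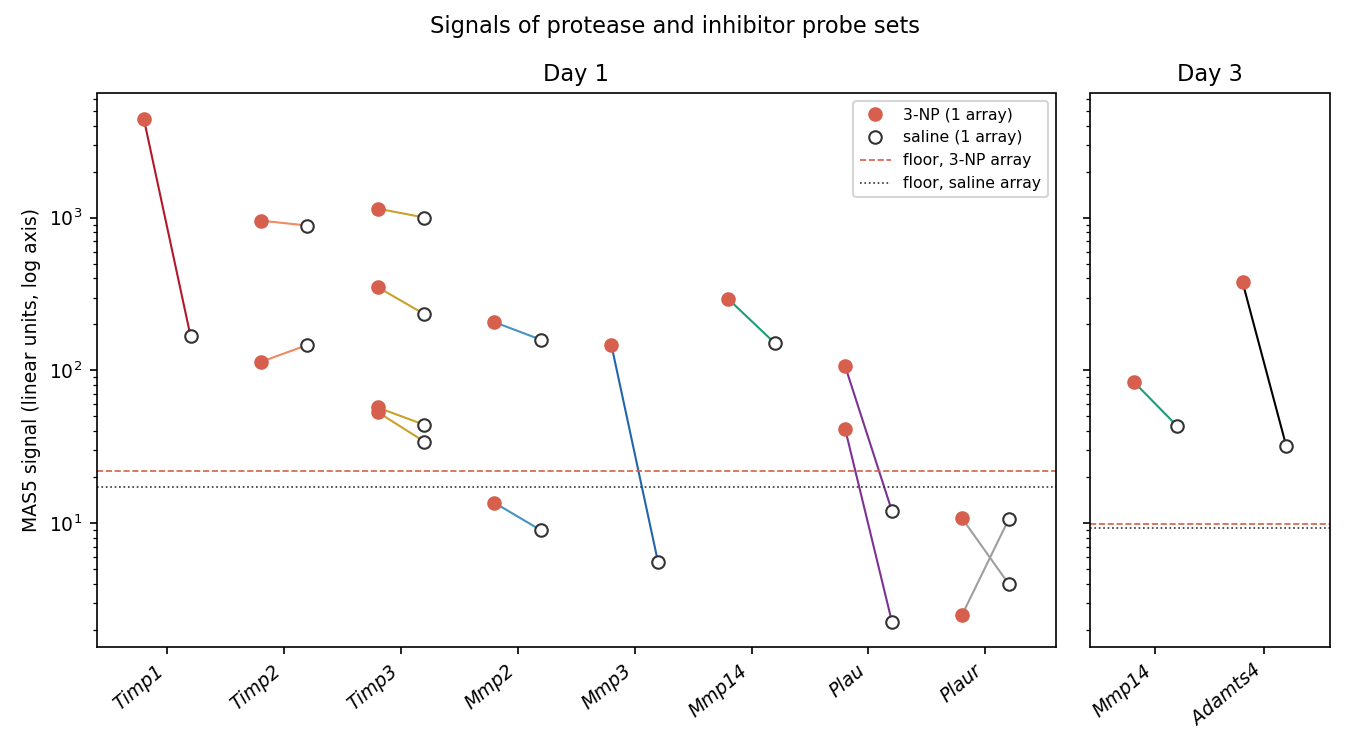
MAS5 signals of every probe set of the 9 genes on a log axis, with the 3-NP array (filled) left of the saline array (open) and a line joining the values of 1 probe set, at day 1 and day 3. Timp1 (4455 in 3-NP against 168 in saline) and Adamts4 (377 in 3-NP against 32.0 in saline) stand apart above the floors (dashed and dotted lines), the Mmp3 and Plau saline points lie below their floor, and all Plaur points lie below the floors.

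Among the members Mmp2, Mmp3 and Mmp14, only Mmp3 was at least 2-fold apart. Mmp3 encodes stromelysin 1, a protease of wide substrate range that also activates other metalloproteinase precursors. It had 147 in 3-NP and 5.53 in saline at day 1. The saline signal lay below the floor, so the difference was at least 6.33-fold relative to the median gene, a bound of 2.66 on the relative log2 scale. With the floor at the 20th percentile the bound became 3.47 and at the 40th it became 1.94. Under a rule that asks for a signal over the 50th percentile in both arrays Mmp3 would not have been measured.

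Mmp2 encodes gelatinase A, which many fibroblast-type cells make without a stimulus. Its measured probe set had 207 in 3-NP and 158 in saline, a relative log2 ratio of -0.05 that turned to 0.38 as deposited. The other Mmp2 probe set had 13.6 in 3-NP and 8.94 in saline, at the floor in both arrays, and carries no ratio. The measured Mmp2 value lay within the probe set SD of the median gene.

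Mmp14 encodes the membrane-anchored metalloproteinase that cuts collagen and activates the Mmp2 precursor. At day 1 it had 294 in 3-NP and 150 in saline, a relative log2 ratio of 0.53. At day 3 a different probe set on the other array design had 84.1 in 3-NP and 43.1 in saline, a relative log2 ratio of 0.86. Both were higher in 3-NP, by more than the probe set SD of the day, and under 2-fold on each day. As deposited both log2 ratios were 0.97. The designs measure with different probe sets, so the days were not compared. At day 1 the Mmp14 ratio exceeded that of Mmp2 by 0.58, against an SD of 0.50 for differences between probe sets of 1 gene.

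In the plasminogen activator pair, the signal of the protease was higher and that of its receptor was not measured. Plau had 107 in 3-NP and 12.0 in saline by its brighter probe set, at least 4.59-fold higher relative to the median gene (2.20). The bound became 2.71 and 1.48 with the floor at the 20th and 40th percentiles. Its other probe set, below the filter, had 41.4 in 3-NP and 2.26 in saline, a bound of 0.83. That bound became 1.64 and 0.11 with the floor at the 20th and 40th percentiles. Both saline signals of Plau were below the floor and both 3-NP signals above it. Plaur, the cell surface receptor that holds urokinase, had 2.49 in 3-NP and 10.6 in saline by 1 probe set, and 10.8 in 3-NP and 3.98 in saline by the other. All 4 Plaur signals were at the floor, and no fold is given.

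Adamts4, an aggrecanase that cuts the core proteins of aggrecan and versican, was measured at day 3 only. It had 377 in 3-NP and 32.0 in saline, both above the floor. The relative log2 ratio was 3.46, or 11.0-fold, and as deposited the signals were 11.8-fold apart. It ranked 4th from the highest of 3822 genes above the floor in both day 3 arrays. No other probe set of Adamts4 was present to set beside it.

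**Figure D2:**
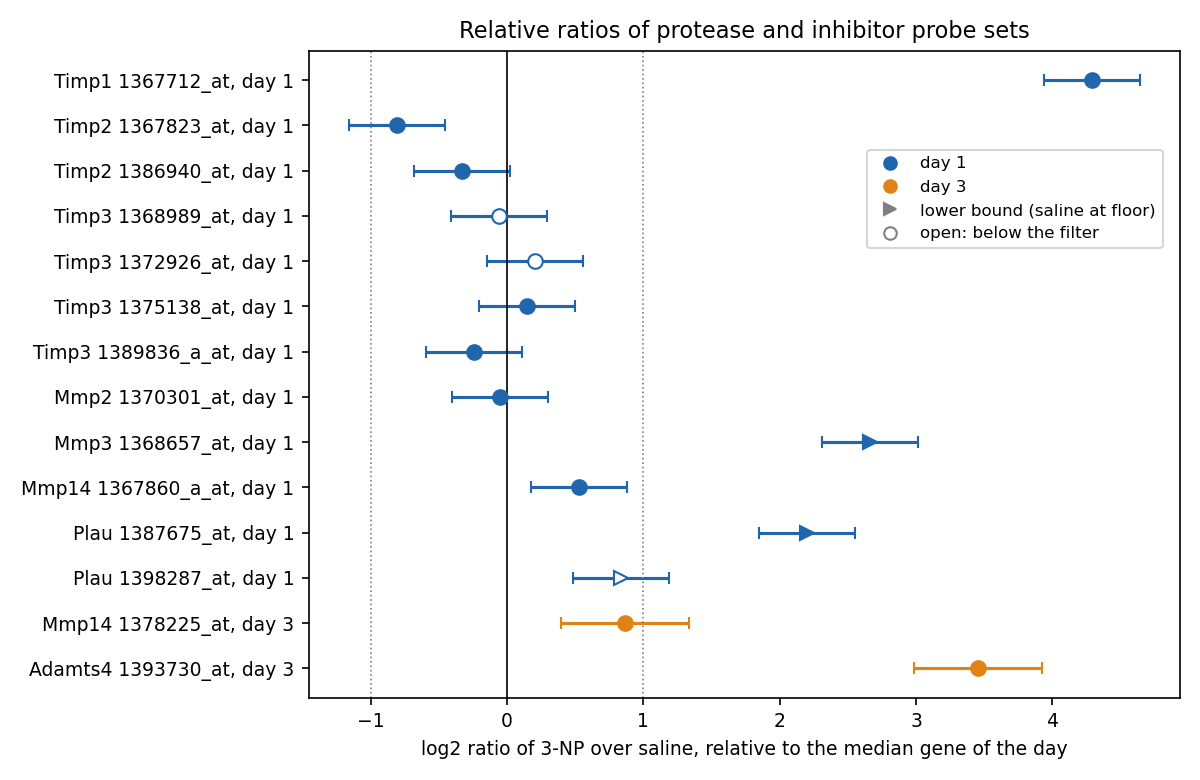
Log2 ratio of 3-NP over saline relative to the median gene for the 14 member probe sets with a ratio. Bars are the SD of a single probe set within an array pair (0.35 at day 1, 0.47 at day 3) and hold no animal error. Triangles are lower bounds, open symbols are probe sets below the filter, and dotted lines mark 2-fold. Timp1, Mmp3, Plau and Adamts4 lie above 2-fold by their representative probe sets and no probe set lies below -1.

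Of the 9 members, 7 were measured at day 1, and 3 of these were at least 2-fold higher in 3-NP (Timp1, Mmp3 and Plau), 0 were lower and 4 were within 2-fold. Over all 6533 measured genes of that day, the share at least 2-fold higher was 7.76% and the share lower 6.47%, or 17.9% and 2.62% as deposited. Mmp3 and Plau entered only because of their 3-NP signals, so they had to differ in that direction, and the count of members is no evidence of a shared response. Of the 5 members that reached the 50th percentile in the saline array, 1 was at least 2-fold higher, Timp1, and of all 6031 such genes 4.43% were. At day 3, 1 of 2 members was at least 2-fold higher, Adamts4, and 0 were lower. The shares of all 3972 genes measured at day 3 were 9.21% higher and 8.18% lower, or 10.9% and 6.42% as deposited. Both measured members of day 3 reached the 50th percentile in saline, as did 3599 genes in all, of which 4.89% were at least 2-fold higher.

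**Figure D3:**
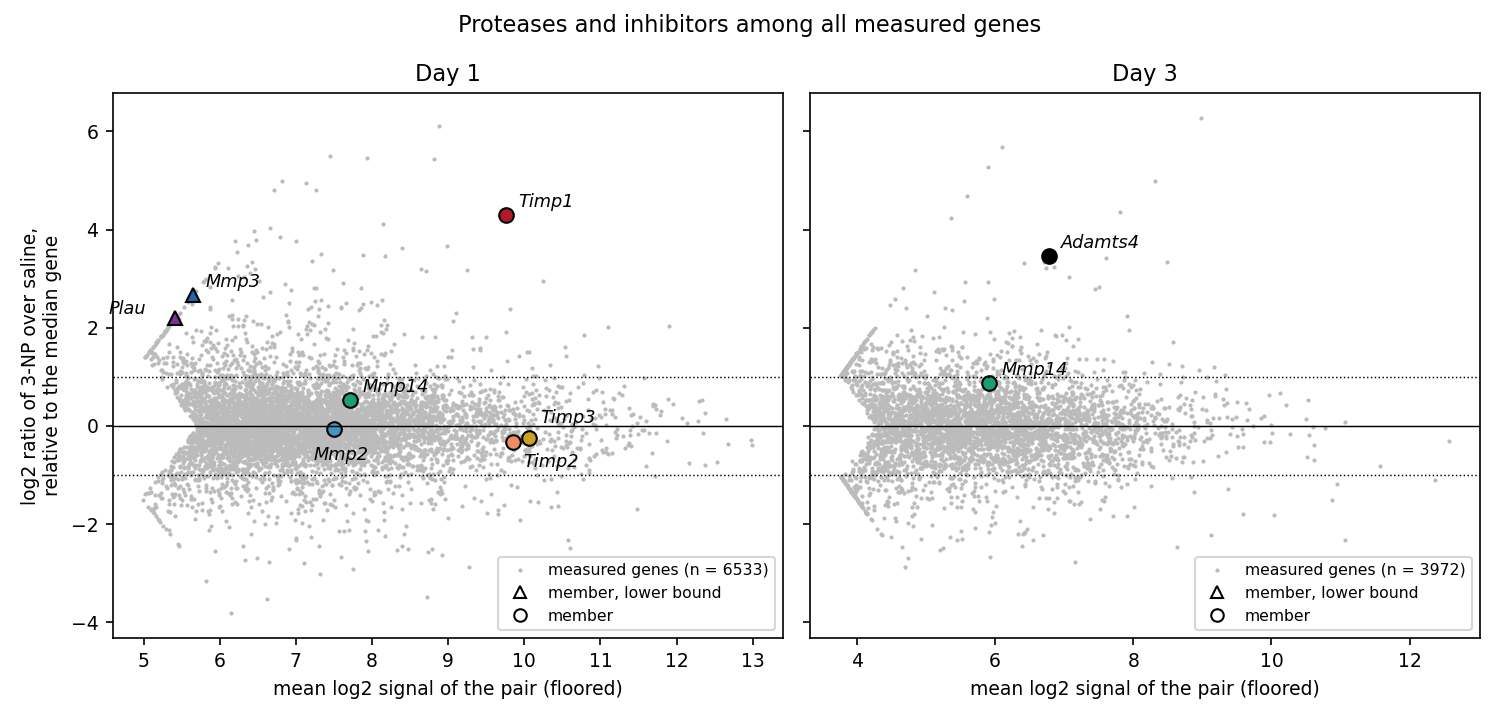
Relative log2 ratio of 3-NP over saline against the mean log2 signal of the pair for every measured gene (grey) and the members (coloured), at day 1 (6533 genes) and day 3 (3972 genes). Timp1 at 4.29 and Adamts4 at 3.46 lie near the upper edge, Mmp3 and Plau lie on the line of bounds formed by genes at the saline floor, and Timp2, Timp3 and Mmp2 lie close to 0.

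The genes nearest to Timp1 in the plane of log2 signals of the 2 day 1 arrays were the interferon-induced Ifitm1, at a distance of 1.06, the glutathione peroxidase gene Gpx2 (1.17) and the lipocalin gene Lcn2 (1.18). For Adamts4 at day 3 they were Fgl2 (0.12), RGD1309362 and Sbno2 (both 0.18). Timp3, the member with the highest saline signal at day 1, had Igfbp7 (0.02), Tmbim6 (0.03) and Max (0.05) nearest, and Mmp14 at day 3 had Zmynd19 (0.03), Ppp1r14c and Snx8 (both 0.06). The genes nearest to Timp1 were at 1.06 or further and so were not close to it. For the other members the likeness rests on 2 arrays, and signals of different probe sets are not comparable as RNA levels.

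The counts in this and the following lists stand beside shares over all measured genes. At day 1 these were 7.76% higher and 6.47% lower, or 17.9% and 2.62% as deposited. At day 3 they were 9.21% and 8.18%, or 10.9% and 6.42% as deposited. With so few genes in a list, counts near these shares say nothing particular about it. Other metalloproteinase genes were mostly dim at day 1. Of 11 on the array 3 were measured, 0 of them at least 2-fold higher and 2 lower (1 as deposited), with a median of -1.08 that rested on Mmp24 and was -0.01 with no filter and -0.34 by the dimmest measured probe sets. Mmp11, encoding stromelysin 3, had 23.5 in 3-NP and 54.3 in saline (-1.65). It passed the filter only through the saline signal, and was at -0.97 with the floor at the 40th percentile. Mmp24, encoding a membrane-type enzyme, had 137 in 3-NP and 214 in saline (-1.08, and -0.65 as deposited), with -0.34 and -0.89 by other probe sets. Mmp7, Mmp8, Mmp9, Mmp10, Mmp12 and Mmp16 were at the floor in both arrays. At day 3, 2 were measured and 0 were 2-fold apart, with Mmp23 furthest from 0 at -0.72.

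Of 7 measured ADAM and ADAMTS genes at day 1, 1 was at least 2-fold higher (2 as deposited) and 0 lower, with a median of -0.01. That gene was Adamts1, another aggrecanase and versican-cutting protease, with 118 in 3-NP and 22.6 in saline (1.95), measured only through the 3-NP signal. At day 3, 2 of 4 were higher and 1 lower. Adamts15 had 43.2 in 3-NP and 17.8 in saline (1.18), and Adamts9 had 25.8 in 3-NP and 11.1 in saline (1.12). Adamts8 had 10.7 in 3-NP and 21.3 in saline (-1.10). These day 3 calls lay near the floor. Adamts15 and Adamts9 passed the filter only through their 3-NP signals and Adamts8 only through its saline signal, so each had to differ in its direction. With the floor at the 40th percentile Adamts9 was at 0.83 and Adamts8 at -0.66, and with the 50th percentile asked of both arrays 0 genes of the list were 2-fold apart. The products of Adamts9 and Adamts15, like that of Adamts4, can cut aggrecan or versican, but genes of this list went both ways at day 3.

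Plasminogen system and serine protease genes went both ways at day 1, with 3 of 11 measured at least 2-fold higher (5 as deposited), 2 lower and a median of 0.41. Plat, encoding tissue plasminogen activator, had 883 in 3-NP and 186 in saline (1.81). F3, encoding tissue factor, the starter of coagulation, had 357 in 3-NP and 63.3 in saline (2.06). Lower were Pcsk6, a proprotein convertase gene, with 81.8 in 3-NP and 207 in saline (-1.78), and the dipeptidyl peptidase gene Dpp4, with 98.2 in 3-NP and 223 in saline (-1.62). Plg, which encodes plasminogen, was at the floor in both arrays. At day 3, 0 genes of this list were measured.

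Among the other inhibitors, 3 of 15 measured were at least 2-fold higher at day 1 (4 as deposited) and 0 lower, with a median of 0.07. They inhibit serine proteases, not metalloproteinases. Slpi, an inhibitor of neutrophil elastase, had 915 in 3-NP and 21.7 in saline (4.96), measured only through the 3-NP signal. Serping1, encoding the C1 inhibitor of complement and kallikrein, had 1581 in 3-NP and 332 in saline (1.81), and Serpina3n had 763 in 3-NP and 153 in saline (1.88). At day 3, 1 of 4 was higher and 1 lower. Timp4, the remaining TIMP gene, was lower, with 42.2 in 3-NP and 177 in saline (-2.17). Spint1, encoding an inhibitor of membrane serine proteases, had 219 in 3-NP and 78.7 in saline (1.38).

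Lysosomal cathepsin genes had a median of 0.00 at day 1 relative to the median gene, with 2 of 11 measured at least 2-fold higher and 1 lower (0 as deposited). Ctsb was at 1.04, with 2950 in 3-NP and 1060 in saline, Ctsl at 1.01 (1.17 by another probe set) and Ctsh at -1.37. Ctsb and Ctsl lay at the edge of 2-fold, and 0 cathepsin genes were higher by that measure when centred on the shared normalization probe sets, under lowess or under quantile normalization. Of 13 measured receptors and binding partners, 2 were higher and 1 lower, with a median of 0.71. The number higher was 8 as deposited, 4 by the dimmest measured probe sets, and 1 when centred on the shared probe sets, under lowess or with the 50th percentile asked of both arrays. Sdc1, a heparan sulfate proteoglycan gene, was at 1.48, measured only through the 3-NP signal (0.65 by a probe set below the filter). S100a10, part of a cell surface plasminogen receptor, was at 1.02 (0.98 on the shared probe sets and 0.96 under lowess). Lrp2, encoding megalin, an endocytic receptor that also takes up protease-inhibitor complexes, was at -1.69. At day 3, 1 of 5 receptors and partners was higher and 0 lower. Lrp1, a clearance receptor for such complexes, had 27.7 in 3-NP and 8.46 in saline there, at least 2.80-fold. That bound was under 2-fold with the floor at the 40th percentile (0.93). Lrp1 was measured only through its 3-NP signal, and not at all where both arrays had to reach the 50th percentile. At day 3, 0 cathepsin genes were measured.

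Of the aggrecanase substrates and hyaluronan matrix genes, 3 were measured at day 1, 1 higher and 1 lower (0 as deposited). Acan, encoding aggrecan itself, had 41.4 in 3-NP and 76.8 in saline (-1.33, and -1.19 by another probe set). Both Acan probe sets passed the filter only through their saline signals and so had to differ in that direction. Tnfaip6, whose product binds hyaluronan and strengthens inter-alpha-inhibitor against plasmin, had 176 in 3-NP and 28.9 in saline (2.17), measured only through the 3-NP signal. With the 50th percentile asked of both arrays, 0 genes of this list were measured. Both signals of a further Tnfaip6 probe set lay at the floor. Vcan, encoding versican, was at the floor in both. At day 3, 0 genes of this list were measured.

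**Figure D4:**
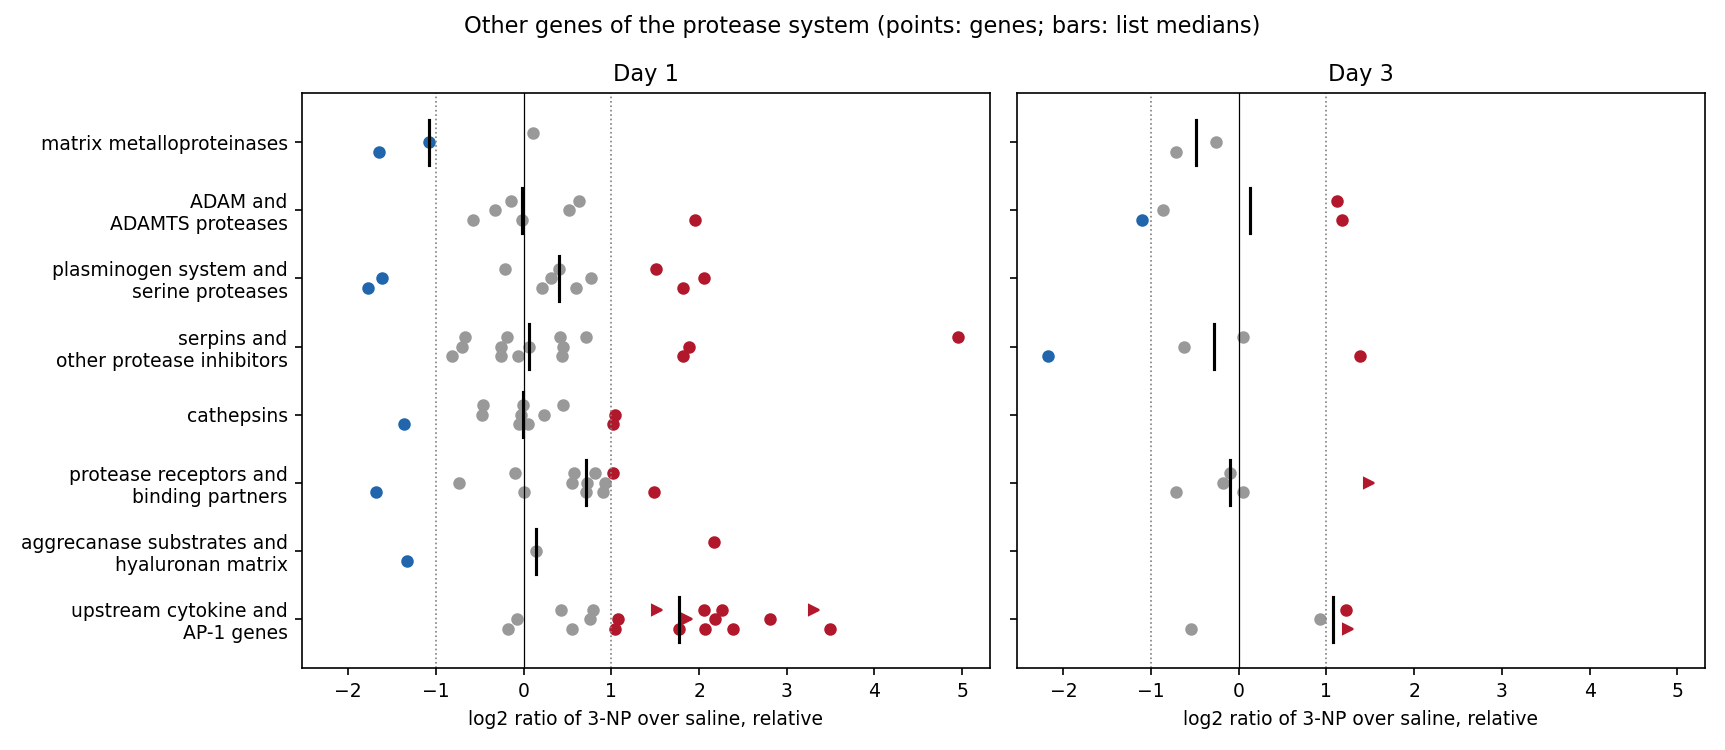
Relative log2 ratio of 3-NP over saline for each measured gene of 8 lists of the protease system at day 1 and day 3. Points are genes, triangles are lower bounds, black bars are list medians and dotted lines mark 2-fold. At day 1 the list of upstream cytokine and AP-1 genes lies furthest to the right, with a median of 1.77, and the other metalloproteinases furthest to the left, at -1.08 over 3 genes (-0.01 with no filter on dim probe sets).

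Cytokine, AP-1 and related regulator genes, several of which are known to induce Timp1, Mmp3 and Plau, included 13 of 19 measured that were at least 2-fold higher at day 1 (15 as deposited), against 7.76% of all measured genes, and 0 lower. The list median was 1.77, and 3 of the values were bounds. Of the 13, 6 passed the filter only through their 3-NP signals and so had to differ in that direction. Of the 13 genes that reached the 50th percentile in saline, 7 were higher, against 4.43% of all such genes, and with that filter asked of both arrays the median was 1.05. Fos, an AP-1 subunit gene, had 629 in 3-NP and 41.1 in saline (3.50), while both signals of a dimmer Fos probe set lay at the floor. Cebpd had 714 in 3-NP and 75.4 in saline (2.81), and Stat3, a signal carrier of the interleukin 6 family, had 420 in 3-NP and 59.4 in saline (2.38, and 2.31 by another probe set). Cebpb, with 231 in 3-NP and 12.8 in saline, was at least 9.96-fold higher. The cytokine gene Il6 had 84.4 in 3-NP and 6.19 in saline, at least 3.63-fold higher, while Il1a, Il1r1, Tnf and Lif were at the floor in both arrays. At day 3, 2 of 4 were higher, the AP-1 gene Fosl2 at least 2.38-fold (0.70 on the log2 scale with the floor at the 40th percentile) and Il6st, encoding the shared receptor of that family, at 1.23. Fosl2 was measured only through its 3-NP signal, and Il6st was at 0.55 at day 1. These genes were listed with earlier results of these arrays known, so their share is no evidence of a shared response. Their part in the Timp1, Mmp3, Plau and Adamts4 values was not tested.

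Markers of cells that could bring proteases were set beside these values. Over all measured genes, 7.76% were at least 2-fold higher and 6.47% lower at day 1, and 9.21% and 8.18% at day 3. Of 10 macrophage and monocyte markers on the day 1 array 5 were measured and 1 was at least 2-fold higher, Cd14, with 177 in 3-NP and 44.9 in saline (1.54), measured only through the 3-NP signal. The macrophage and monocyte signals summed to 2407 in 3-NP and 1464 in saline, mostly Lyz2, and Ptprc, Itgam and Aif1 were at the floor in both arrays. Sums here and below add signals as deposited over all markers of a list on the array. They are not centred, so at day 1 they include the higher signal of the median gene in 3-NP, a log2 ratio of 0.44. At day 3, 2 of 3 measured macrophage markers were at least 2-fold lower (0 as deposited), Mrc1 at -1.08 and Cd163 at -1.07, and Itgb2 was at 0.47. Cd163 passed the filter only through its saline signal, and another Cd163 probe set, below the filter, gave a bound of -0.55. Of 5 neutrophil markers 2 were measured at day 1, S100a8 at -0.65 and S100a9 at 0.34, with sums of 224 in 3-NP and 164 in saline. Endothelial and mural markers had 3 of 5 measured genes higher and 1 lower at day 1 (4 and 0 as deposited), with sums of 927 in 3-NP and 432 in saline. Of the 3 higher, Kdr had 213 in 3-NP and 51.4 in saline (1.61), while Mcam and Plvap are bounds that passed only through their 3-NP signals. Rgs5 was the lower gene, at -1.14, measured only through the saline signal, and Vwf was at 0.58. At day 3, 0 of 2 were 2-fold apart. The part of these cells in the protease values was not tested, and fewer cells of a type and less RNA per cell cannot be told apart in such samples.

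All 12 spiral ligament fibrocyte markers on the day 1 array were measured, with signals as deposited summing to 12705 in 3-NP and 18481 in saline. Of these markers, 6 were at least 2-fold lower, or 4 as deposited, and 1 was higher, or 2 as deposited. Fibroblast markers had 1 of 8 lower, 0 higher (1 and 2 as deposited) and a median of -0.35 (0.09 as deposited). They ranged from -1.51 for Col1a2 to 0.90 for Fn1. Slc26a4, 1 of the lower fibrocyte markers, passed the filter only through its saline signal. Bone and cartilage markers had 8 of 10 lower (5 as deposited). Of these, Acan, Ibsp, Omd and Phex passed the filter only through their saline signals and so had to differ in that direction, and Phex is a bound. Stria and melanocyte markers had 5 of 7 lower (2 as deposited), in tissue that 1 label field describes as freed of the stria. At day 3, the day of the Adamts4 value, 2 of 4 measured fibrocyte markers were lower and 0 higher, with a median of -0.96 and sums of 9816 in 3-NP and 14814 in saline. Of 6 stria and melanocyte markers at day 3, 3 were lower and 1 higher. Bsnd, among the lower ones, passed the filter only through its saline signal. The higher one was Tyrp1, a bound with the saline signal at the floor, and 0.69 by another measured probe set. Of 2 bone and cartilage markers, 0 were 2-fold apart. As measures of RNA integrity, the Actb control probe sets gave 3' signals 2.53 to 3.22 times their 5' signals over the 4 arrays, and the Gapdh controls 1.17 to 1.46 times.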

How the data were processed

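The authors deposited linear signal intensities for each probe set, made with MAS5 per the submitters' processing notes, from biotin-labelled cRNA of 6 µg total RNA per the labels' protocols. Scaling target, detection calls and any pooling of animals: not given in the sources used here. Day 1 and day 3 arrays are of different designs, with 15923 and 15333 probe sets, and were not pooled. Gene symbols followed the platform annotation, brought up to date by Entrez identifier against RefSeq GRCr8, and probe sets with 1 symbol were used. Python 3.11.15, pandas 2.3.3 and numpy 2.4.6 were used. Signals were floored, probe sets filtered and log2 ratios of 3-NP over saline centred on the median gene as described above. The brightest measured probe set stood for a gene. Alternatives covered centring, lowess (statsmodels 0.14.6, span 0.3) and quantile normalization, the floor, the filter and the probe set chosen. The centring and the recovery of changes in bright probe sets were tested on simulated data. Bounds and values near the floor were not tested in that way. Members, lists and alternatives were chosen with earlier results of these data known. Named genes are all members, up to 4 genes per list at least 2-fold apart (otherwise the furthest from 0) and the 3 genes nearest to the members with the largest ratio and the highest saline signal on each day. Marker genes, Il6 and members of lists at the floor were named after their values were seen. Precision is limited by having 1 array per group.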

Additional observations from a re-analysis of the deposited data

Results flagged for a closer look

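Lrp1, encoding an endocytic receptor that clears protease-inhibitor complexes, had relative ratios of opposite sign on the 2 days. The day 1 value lay within the probe set SD (0.35) of the median gene. At day 3 Lrp1 passed the filter only through its 3-NP signal, so it had to differ in that direction. The relative log2 ratio, 3-NP over saline, stood at -0.10 at day 1 (0.34 as deposited) and 1.48 at day 3, a bound with the saline signal at the floor that was 0.93 with the floor at the 40th percentile. The probe sets and array designs differ between days, and the difference was not tested.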

How the results depend on the processing

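No paired analysis was possible because each group held 1 array. The counts of members at least 2-fold higher and lower at each day were the same under 10 alternatives, except that asking for the 50th percentile in both arrays left 1 member higher at day 1, since Mmp3 and Plau were then not measured. Over the alternatives for scaling, floor and filter, Timp1 lay between 4.21 and 4.73 and Adamts4 between 3.43 and 3.56. The bounds of Mmp3 (1.94 to 3.47) and of the brighter Plau probe set (1.48 to 2.71) moved with the floor. As deposited, the brightest Timp2 and Timp3 probe sets, a dim Timp3 probe set and the measured Mmp2 probe set changed sign, all at sizes under 1. Among all genes at day 1, 87.2% of those 2-fold apart were higher as deposited, against 54.5% relative to the median gene and 49.7% relative to the 100 normalization probe sets shared by both designs. At day 3 these shares were 62.9%, 53.0% and 49.3%. Requiring the 50th percentile in both arrays left 268 higher and 247 lower genes at day 1, and 183 and 165 at day 3. Of 258 list counts recomputed under alternatives, 229 stayed within 1.5 times their main value, which includes counts that stayed at 0. Of 129 list medians, 15 moved by at least the probe set SD of the day. Besides those given above, asking for the 50th percentile in both arrays left 0 ADAM and ADAMTS genes higher at day 1. Genes near the floor have only bounds, and animal-to-animal spread could not be estimated.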
